A study of Mus musculus with 15 samples.

Results

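The taurine transporter TauT, encoded by *Slc6a6*, was examined here by comparing 4 TauT KO with 3 WT libraries of cultured mouse bone marrow mesenchymal stromal cells (MSCs). These 7 of the 15 libraries of the series were chosen by total counts, as those with under 25000000 counts. Their totals lay between 12761107 (WT 2) and 20781070 counts (KO 4), and the next library above them held 69764291. All 7 carried the label female and the 8 deeper libraries the label male, so depth and labelled sex cannot be told apart. KO libraries are called KO 1 to KO 4 and WT libraries WT 1 to WT 3, by the numbers in their labels.

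The KO mice lacked TauT in all tissues and the controls were TauT+/+ mice. Both were of C57BL/6J background and 16 weeks of age. Marrow cells from the long bones were grown on collagen in 15% serum at 2% oxygen, and cells negative for the blood cell marker CD45 were then sorted magnetically. No further treatment was given to either group. The deleted exons are not given in the sources used here, and neither is whether each library came from its own animal, so p-values measure only the spread between these cultures.

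TauT carries taurine into cells against its gradient, driven by sodium and chloride. Taurine is an abundant free amino sulfonic acid that serves as an osmolyte, conjugates bile acids and modifies mitochondrial tRNAs. MSCs of the marrow give rise to bone-forming and fat cells and secrete factors such as CXCL12 and stem cell factor that maintain blood stem cells. Wnt proteins, which bind Frizzled receptors with the co-receptors LRP5 and LRP6, promote the bone-forming fate of these cells.

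*Slc6a6* (chr6:91660573-91736047, GRCm39, plus strand) was still transcribed in every KO library. Its level, in CPM (counts adjusted for the depth and composition of each library), was 398, 731, 793 and 1587 in KO 1 to KO 4 and 1700, 2135 and 1312 in WT 1 to WT 3. KO 4 lay above WT 3, so the genotypes overlapped, and the level in the library labelled KO 4 does not separate it from WT. The log2 fold change, KO minus WT as throughout, was -0.97 (SE 0.46, adjusted p = 0.381, edgeR). Without KO 4 it was -1.43 and without WT 3 -1.15. The counts cover the whole gene, so they do not show whether the remaining transcript encodes a working transporter.

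One WT library went against its label. WT 3 held 14.3 CPM of *Xist*, the RNA of the inactive X chromosome, and 83.4 CPM of the Y-linked *Ddx3y*, whereas the other 6 libraries held 446 to 904 CPM of *Xist* and at most 0.208 CPM of *Ddx3y*. Values without WT 3 are given for *Slc6a6*, as a range for the 20 genes picked below, for most gene lists and for some other genes. KO 4 also stood apart, with *Fth1*, an iron storage subunit, taking 3.99% of its counts. *Cd44* and *Itgb1*, which encode surface markers by which the study identified MSCs, were at 105 to 444 and at 1186 to 2115 CPM. *Eng*, which encodes CD105, another of those markers, was at 29.5 to 107 CPM in KO and at 282 to 469 CPM in WT. *Lepr*, a marker of marrow MSCs in vivo, reached only 2.38 CPM. *Ptprc*, which encodes CD45, was at 126 to 331 CPM in these CD45- sorted cultures, while *Cd3e* and *Hbb-bs*, markers of T cells and red cells, were at 0. Macrophage markers were abundant, with *Lyz2* at 3277 to 11031, *Csf1r* at 458 to 1681 and *Adgre1* at 157 to 3523 CPM. *Lyz2* took the largest share of counts of any gene in KO 2 (1.16%). No pair among the 7 libraries agreed within sampling noise. Outside them, KO 1 nearly matched the deep library male KO 1 and WT 1 the deep library male WT 1, with a spread of log2 ratios of 0.109 and 0.121 against 0.300 for the next closest pair of the series. Both of those deep libraries, labelled male, held *Xist* at 718 and 833 CPM and *Ddx3y* at no more than 0.181 CPM.

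Loss of TauT was compared with WT across 14209 genes. Among the 20 genes picked below, *Id4* and *Fzd4* had the largest falls in KO, each by more than 3 log2 units. *Fxyd2*, *Ccr1* and *Slco4a1* had the largest rises in KO, by a similar amount. *Cav2*, with a smaller log2 fold change of 1.35, had the smallest unadjusted p of the 10 higher genes (6.6e-05, edgeR). *Id4*, *Fzd4* and *Ccr1* overlapped between genotypes in the 6 deep libraries compared below. As groups, macrophage and innate receptor genes were higher in most KO libraries. Wnt receptor, retinoic acid and blood stem cell support genes mostly had negative log2 fold changes. Of these lists only the retinoic acid genes had summed levels without overlap between genotypes. In bulk samples fewer cells of a type and less RNA per cell cannot be told apart. No single gene passed an adjusted p of 0.05 in edgeR's quasi-likelihood test (0 of 14209, 0%), and the smallest adjusted p was 0.0621. At an unadjusted p under 0.05 there were 998 genes higher in KO (7.02% of those tested) and 1016 lower (7.15%). Leaving out 1 library moved these counts to between 456 and 1476 higher and between 650 and 1325 lower, with the fewest without WT 2 and the most without KO 1. The higher count also moved by over 1.5 times without KO 3 (538), WT 1 (545) and WT 3 (579). Genotypes did not overlap for 1058 genes higher (7.45%) and 1157 lower (8.14%). limma voom called 0 genes, with 797 higher and 1143 lower at an unadjusted p under 0.05, and DESeq2 called 266 higher (1.87%) and 354 lower (2.49%). Of the 620 DESeq2 calls, 619 had an unadjusted edgeR p under 0.05 and 572 did not overlap between genotypes. These measures share the same 7 libraries, so their agreement is not a separate check of the calls. The words higher and lower describe levels below, since no gene passed the main test. These percentages over all genes are the background for each count in a gene list below.

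**Figure D1:**
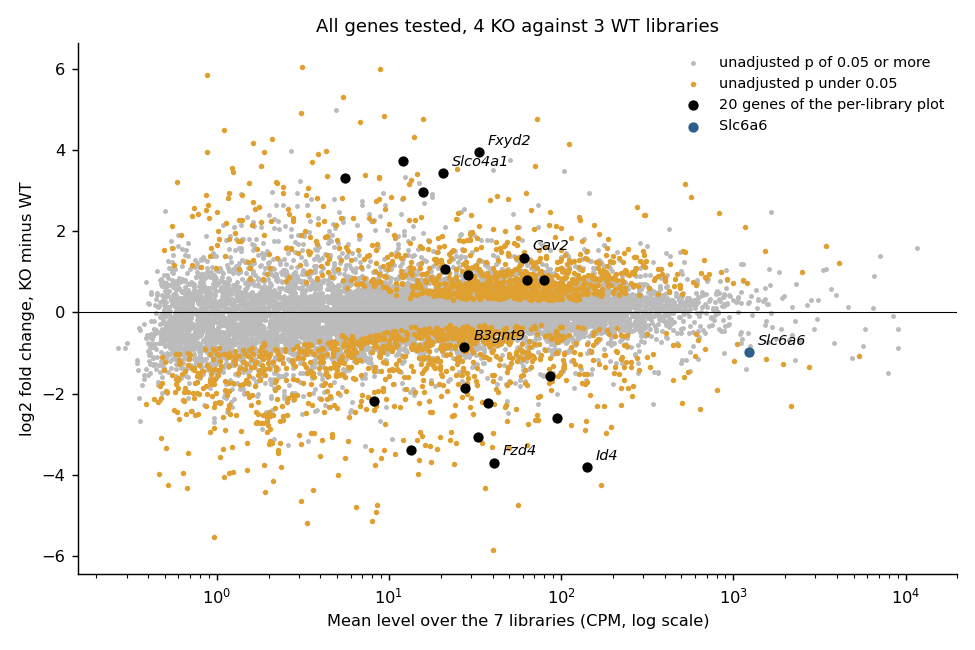
Log2 fold change (KO minus WT, vertical axis) of each of the 14209 tested genes against its mean level over the 7 libraries (CPM, log scale, horizontal axis). Orange points have an unadjusted edgeR p under 0.05 and black points are the 10 higher and 10 lower genes described per library. *Id4* and *Fzd4* lie at -3.81 and -3.70, and *Slc6a6* (blue) at -0.97.

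The named genes were the 10 higher and the 10 lower in KO with the smallest p among genes that averaged 5 CPM or more and whose genotypes did not overlap. That they do not overlap, and that all 20 had an unadjusted p under 0.05 whichever of the 7 libraries was left out, comes with how they were picked and is not a result of its own. Without WT 3 their log2 fold changes lay between -3.93 (*Fzd4*) and -0.85 (*B3gnt9*) for the lower genes, and between 0.76 (*Ttyh2*) and 4.86 (*Fxyd2*) for the higher.

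*Id4* (chr13:48414558-48419502, plus strand) encodes a helix-loop-helix protein that lacks a DNA-binding region and holds partner factors away from DNA. It was at 27.8, 30.6, 12.4 and 14.9 CPM in KO 1 to KO 4 and at 313, 311 and 277 CPM in WT 1 to WT 3. The WT libraries lay close together and every KO library was far below them. The log2 fold change was -3.81 (SE 0.35, adjusted p = 0.0621, edgeR). *Fzd4* (chr7:89053563-89062342, plus strand), a Frizzled receptor for Wnt and Norrin, was at 4.52, 6.60, 9.58 and 5.82 CPM in KO and at 75.1, 124 and 58.5 CPM in WT. No library came near the gap between the genotypes, and the log2 fold change was -3.70 (SE 0.35, adjusted p = 0.0621, edgeR).

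Among the other genes lower in KO, *G0s2*, an inhibitor of adipose triglyceride lipase, was at 2.49, 3.06, 1.79 and 3.16 CPM in KO and at 31.6, 40.2 and 11.4 CPM in WT, the lowest WT value being that of WT 3. Its log2 fold change was -3.39 (SE 0.45, adjusted p = 0.142, edgeR). *G0s2* overlaps the oppositely oriented *Lamb3* in the annotation, whose own level was 1.47 CPM in WT and 0.409 CPM in KO on average. *Hsd11b1*, a neighbouring gene that encodes an enzyme regenerating active glucocorticoids, fell outside the rule on mean level and was singled out after its values were seen. It was at 0.831, 1.07, 0.715 and 1.09 CPM in KO and at 8.50, 6.53 and 6.85 CPM in WT, with a log2 fold change of -2.96 (SE 0.29, adjusted p = 0.0621, edgeR). *Hsd11b1*, *Id4* and *Fzd4* thus shared the lowest adjusted p of the comparison.

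*Prag1*, a pseudokinase, was at 28.4, 22.4, 37.0 and 30.5 CPM in KO and at 218, 230 and 93.2 CPM in WT. *Adarb1*, an adenosine deaminase that edits RNA, was at 14.8, 9.51, 15.6 and 18.5 CPM in KO and at 94.4, 68.0 and 44.4 CPM in WT. *Adamts10*, a secreted protease of the extracellular matrix, was at 59.4, 46.8, 46.5 and 34.3 CPM in KO and at 143, 130 and 143 CPM in WT. In *Prag1* and *Adarb1* WT 3 was the lowest WT library, and in *Adamts10* the WT libraries were nearly level. Log2 fold changes were -2.61 (SE 0.34) for *Prag1*, -2.24 (SE 0.31) for *Adarb1* and -1.57 (SE 0.19) for *Adamts10*. The remaining 4 lower genes were *C130074G19Rik* (-3.07), the homeobox gene *Hoxb2* (-2.19), *F730043M19Rik* (-1.86) and *B3gnt9*, a glycosyltransferase gene (-0.85). *Hoxb2* overlaps the antisense *Hoxb3os*, which had a log2 fold change of -3.06, and *B3gnt9* overlaps *Phaf1*, which had 0.05. Reads of such overlapping genes may be split between them, and the sources used here do not say whether the kit kept strand.

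Of the genes higher in KO, *Slco4a1* (chr2:180097984-180116660, plus strand), an organic anion transporter, was at 28.7, 36.5, 46.8 and 23.4 CPM in KO and at 3.14, 1.54 and 4.64 CPM in WT. *Fxyd2*, a regulatory subunit of the sodium pump, was at 18.9, 51.2, 70.7 and 81.3 CPM in KO and at 2.62, 1.08 and 6.85 CPM in WT. *Ccr1*, a receptor for chemokines such as CCL3 and CCL5 that is found on myeloid cells, was at 17.2, 12.5, 43.7 and 6.53 CPM in KO and at 1.66, 1.61 and 1.27 CPM in WT. KO libraries spread several-fold in *Ccr1* and *Fxyd2*, with KO 4 the lowest for one and the highest for the other. Log2 fold changes were 3.43 (SE 0.44) for *Slco4a1*, 3.96 (SE 0.77) for *Fxyd2* and 3.72 (SE 0.69) for *Ccr1*, with adjusted p from edgeR of 0.142, 0.213 and 0.201.

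*Kdr*, a receptor for vascular endothelial growth factor, was at 12.0, 21.9, 36.0 and 31.2 CPM in KO and at 4.51, 3.92 and 1.27 CPM in WT. *Cav2*, a scaffold protein of caveolae, was at 65.9, 79.7, 83.6 and 98.8 CPM in KO and at 30.9, 33.1 and 32.5 CPM in WT. *Kdr* had a log2 fold change of 2.97 (SE 0.56) and *Cav2* one of 1.35 (SE 0.17). The smaller difference of *Cav2* came with the tighter libraries and the smaller unadjusted p. The other higher genes were *AU022793* (3.30), *Rnf157*, a ubiquitin ligase gene (1.07), *Socs6*, of the suppressor of cytokine signalling family (0.92), *Cacul1*, whose product associates with a cyclin-dependent kinase (0.81), and *Ttyh2*, of the tweety family of membrane proteins (0.80).

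**Figure D2:**
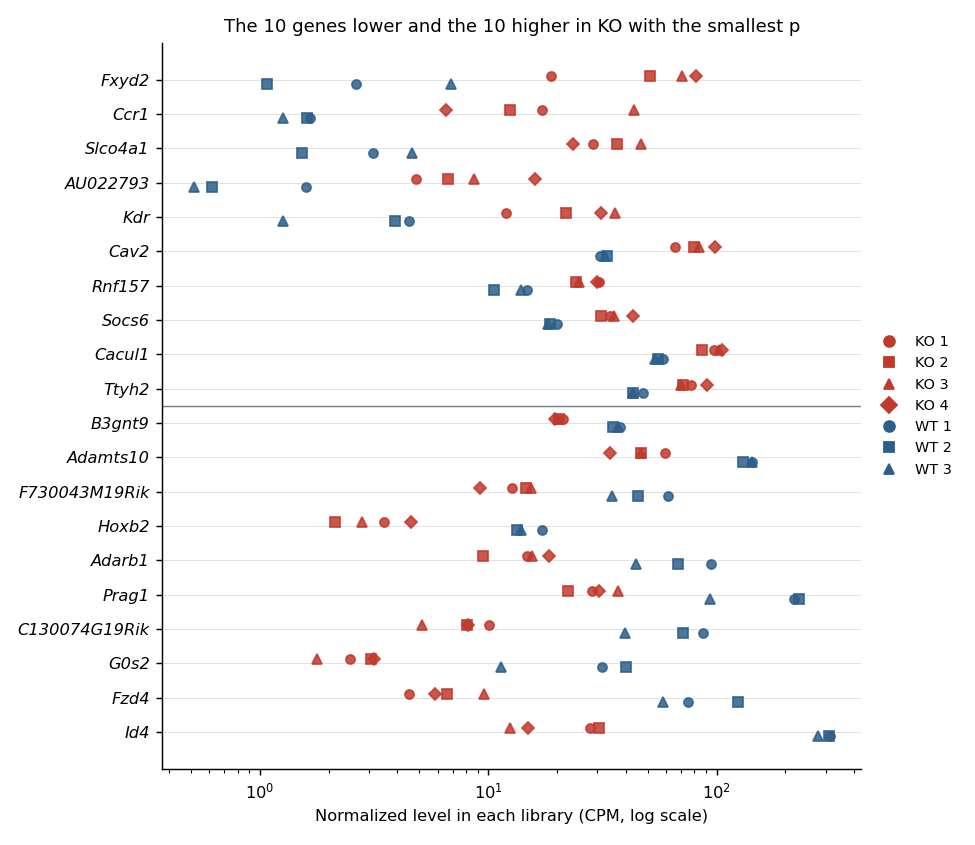
Level in each of the 7 libraries (CPM, log scale, horizontal axis) of the 10 genes higher and the 10 genes lower in KO with the smallest p among those that averaged 5 CPM or more and did not overlap between genotypes. Each point is 1 library, KO in red and WT in blue. WT *Id4* lies between 277 and 313 CPM and KO *Id4* between 12.4 and 30.6 CPM.

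Taurine genes other than the transporter were examined next. *Cdo1*, the dioxygenase that starts taurine synthesis from cysteine, was at 7.90, 17.9, 11.9 and 5.82 CPM in KO and at 44.0, 54.3 and 66.3 CPM in WT. All KO libraries lay below all WT libraries, and the log2 fold change was -2.33 (SE 0.38, adjusted p = 0.177, edgeR), or -2.19 without WT 3. *Csad*, the decarboxylase that follows it, had a log2 fold change of -0.61 (SE 0.61). *Fmo1*, which oxidizes hypotaurine to taurine, was at 11.1, 1.21, 0.786 and 0.327 CPM in KO and at 65.5, 17.9 and 5.30 CPM in WT, and KO 1 overlapped WT 3. Of the 9 tested members of the list, 2 were lower at an unadjusted p under 0.05 and none higher. The other low-affinity carriers *Slc36a1* and *Slc16a6* had -0.09 and 0.35.

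Genes of other osmolytes gave 1 large difference. *Slc5a3*, the sodium-coupled myo-inositol transporter, was at 46.9, 61.2, 17.2 and 21.2 CPM in KO and at 363, 349 and 100 CPM in WT. WT 3 was the lowest WT library, still above every KO library, and the log2 fold change was -2.89 (SE 0.60, adjusted p = 0.222, edgeR). *Slc5a3* overlaps *Mrps6* on the same strand, and *Mrps6*, a mitochondrial ribosomal protein gene, had -2.22 (SE 0.35), so reads of the pair cannot be assigned with certainty. Over the 15 tested members of the osmolyte and cell volume list the median log2 fold change was 0.09 (0.03 without WT 3, 0.22 without KO 4), beside 0.03 over all genes. *Lrrc8c* and *Oxsr1*, a volume-regulated channel subunit and a kinase of the cell volume response, were higher at an unadjusted p under 0.05 with 0.97 and 0.69. The 20 tested genes of inositol metabolism had a median of -0.01, and 1 of them, the phospholipase gene *Plcb4*, had a p under 0.05 (-0.96, SE 0.34).

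Wnt receptors and co-receptors were mostly lower in KO. Of 18 tested members 14 had a negative log2 fold change and the median was -0.59. At an unadjusted p under 0.05 there were 6 lower, beside 7.15% of all genes, and 0 higher. Genotypes did not overlap for 5 lower members (27.8%, beside 8.14% of all genes), and DESeq2 called 4 lower, beside 2.49%. Levels summed over the list were 1283, 885, 835 and 584 CPM in KO and 1409, 1678 and 1189 CPM in WT, so KO 1 lay above WT 3. *Fzd5* was at 34.5, 101, 60.6 and 56.2 CPM in KO and at 262, 323 and 193 CPM in WT (log2 fold change -2.04, SE 0.36). *Lrp6*, a Wnt co-receptor, was at 111, 140, 85.5 and 88.1 CPM in KO and at 284, 192 and 147 CPM in WT (-0.97, SE 0.28). In *Lrp6* the highest KO library came close to WT 3, whereas in *Fzd5* the genotypes were well apart. *Ror1* had -1.74, *Fzd8* -1.36 and *Fzd1* -1.17, while *Fzd7*, *Fzd3* and *Ryk* had -0.04 each and *Lrp5* 0.06. The median was -0.49 without WT 3, -0.32 without KO 4 and -1.03 without KO 1.

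Wnt ligands and secreted inhibitors had medians near 0 in the 7 libraries. The 12 tested ligand and secretion genes had a median of 0.03 with 6 on each side and 0 with an unadjusted edgeR p under 0.05. In the 6 deep libraries their median was -0.46, with 11 of 12 lower. Among 9 secreted inhibitors 1, the Frizzled-related antagonist *Frzb*, had a p under 0.05, at 9.35, 8.64, 10.4 and 3.32 CPM in KO and at 25.1, 52.0 and 58.6 CPM in WT (-2.51, SE 0.44). The median of those inhibitors, 0.06, changed sign without KO 1 (-0.11) or KO 2 (-0.32), and that of the ligands without KO 2 (-0.18) and with upper-quartile scaling (-0.02). In voom the medians were -0.79 for the inhibitors and -0.16 for the ligands. Among 13 feedback targets the median was -0.34, or -0.39 without WT 3 and -0.72 without KO 2. *Nkd1*, a negative regulator induced by Wnt, was at 2.18, 5.68, 0.786 and 1.36 CPM in KO and at 53.5, 25.3 and 16.1 CPM in WT (-3.64, SE 0.72), whereas *Axin2*, another such regulator, had 0.49 with no p under 0.05. *Cd44* and *Myc* were higher at an unadjusted p under 0.05, with 0.94 and 0.92.

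Retinoic acid genes had a median of -1.20 over 13 tested members (11 lower, 5 with an unadjusted p under 0.05). *Aldh1a2*, an aldehyde dehydrogenase that makes retinoic acid, was at 258, 117, 300 and 111 CPM in KO and at 1061, 1158 and 530 CPM in WT (-2.22, SE 0.46). *Aldh1a1*, another such enzyme, had -2.30 and *Rarb*, a retinoic acid receptor induced by its ligand, -2.65. The levels summed over the list were 782, 621, 832 and 672 CPM in KO and 1719, 1986 and 1356 CPM in WT, with no overlap. The median was -1.06 without WT 3, -0.85 without KO 4 and -0.53 without WT 1.

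The BMP and TGF-beta list had 16 of 20 members lower, with a median of -0.72 and 5 at an unadjusted p under 0.05. The median was -0.73 without WT 3, -1.11 without KO 2 and -1.25 in voom. *Bmp5*, a bone morphogenetic protein, was at 8.0, 41.8, 29.8 and 10.6 CPM in KO and at 168, 182 and 75.6 CPM in WT (-2.65, SE 0.62). *Chrdl1*, a secreted BMP antagonist, was at 4.16, 4.51, 1.00 and 1.69 CPM in KO and at 45.0, 58.7 and 7.22 CPM in WT (-3.69, SE 0.79). Both WT 3 values lay nearest to KO, and the 2 genes encode products of opposite action. *Id1* and *Id3*, relatives of *Id4* and targets of BMP signalling, had -1.61 and -0.80 with p above 0.05, and *Id2* had 0.77.

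Genes of blood stem cell support had a median of -0.87, with 15 of 18 lower but only 2 at an unadjusted p under 0.05, beside 7.15% of all genes. Levels summed over the list were 26576, 13398, 18935 and 4432 CPM in KO and 32974, 17920 and 5882 CPM in WT, so the genotypes overlapped. The median was -0.74 without WT 3, -0.54 without KO 4 and -1.26 in voom. *Vcam1*, an adhesion molecule that retains blood stem cells, was at 136, 64.7, 39.5 and 24.2 CPM in KO and at 301, 497 and 181 CPM in WT (-2.30, SE 0.61). *Hgf*, hepatocyte growth factor, was at 44.1, 31.8, 17.8 and 8.60 CPM in KO and at 105, 125 and 22.2 CPM in WT (-1.71, SE 0.69). *Kitl*, stem cell factor, was at 190, 52.5, 17.2 and 30.8 CPM in KO and at 428, 211 and 47.6 CPM in WT (-1.65, SE 0.95, adjusted p = 0.444, edgeR). For *Hgf* and *Kitl* WT 3 lay within the KO range, while *Vcam1* did not overlap. The value of *Kitl* moved with single libraries, to -0.82 without WT 1, -2.77 without KO 1 and -2.14 without WT 3, and that of *Hgf* was -2.17 without WT 3. *Cxcl12* spread from 90.3 to 13733 CPM among KO and from 2087 to 23219 CPM among WT libraries, and its log2 fold change of -1.49 was smaller than its SE of 1.54. Between libraries of the same number, 1 to 3, *Kitl*, *Hgf* and *Cxcl12* were each lower in KO. That comparison was made after their values were seen.

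Stromal and lineage genes were lower on balance. Of 18 stromal markers 14 were lower, with a median of -0.81 (-0.73 without WT 3, -0.64 without KO 4), 5 lower and 1 higher at an unadjusted p under 0.05. *Eng*, the TGF-beta co-receptor also known as CD105, was at 34.7, 44.1, 107 and 29.5 CPM in KO and at 469, 282 and 397 CPM in WT (-2.83, SE 0.48). *Pdgfrb*, a platelet-derived growth factor receptor of mesenchymal cells, was at 381, 314, 383 and 267 CPM in KO and at 542, 751 and 471 CPM in WT (-0.81, SE 0.24). The genotypes were far apart in *Eng* and close in *Pdgfrb*, but in the 6 deep libraries *Eng* had 0.20 (SE 1.49). Levels summed over the stromal list were 27222, 17713, 24696 and 7325 CPM in KO and 48295, 33156 and 30844 CPM in WT. Abundant members weigh most in this sum. *Cxcl12* was at 13733 CPM in KO 1 and 23219 CPM in WT 1, and *Col1a1* at 5503 and 11237 CPM in the same libraries.

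Of the 11 tested osteoblast genes 10 were lower and 1 higher, with a median of -0.74 (-0.44 without WT 3). At an unadjusted p under 0.05 there were 1 lower and 0 higher. The higher one, *Spp1*, which encodes the secreted bone matrix protein osteopontin, averaged 9693 CPM in KO and 3696 CPM in WT (1.39, SE 0.75, adjusted p = 0.423, edgeR). The level summed over the list was 33802 CPM in KO 3 and 8546 to 18452 CPM in the other KO libraries, and 18137 to 23676 CPM in WT, so the genotypes overlapped. *Bglap* and *Dmp1*, markers of mature osteoblasts and osteocytes, reached at most 0.563 and 0.114 CPM. The 13 adipocyte genes had a median of -1.02 with 4 lower at an unadjusted p under 0.05, or of -0.64 without WT 1 and -1.38 without WT 3. *Pparg*, the master regulator of fat cells, was at 46.5, 27.8, 36.9 and 27.7 CPM in KO and at 99.1, 79.6 and 32.9 CPM in WT (-1.02, SE 0.38), with WT 3 inside the KO range. *Plin1*, a lipid droplet protein, was at 0.286 to 0.675 CPM in KO and at 1.13 to 8.14 CPM in WT. Of 22 collagen and matrix genes 19 were lower (median -0.54, or -0.61 without WT 3). Only 2 lower, beside 7.15% of all genes, and 1 higher had an unadjusted p under 0.05. In the 6 deep libraries the median of this list was -0.11. *Col8a1* had the smallest p, at 147, 395, 243 and 133 CPM in KO and 1155, 1635 and 805 CPM in WT (-2.38, SE 0.45). *Tnc*, tenascin C, went the other way at 582, 718, 1003 and 599 CPM in KO and 72.4, 337 and 371 CPM in WT (1.48, SE 0.55).

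Macrophage genes were higher in most KO libraries. Of 20 markers 19 had a positive log2 fold change, with a median of 0.82, and 9 had an unadjusted p under 0.05. *Cd68*, a lysosomal glycoprotein of macrophages, was at 328, 591, 777 and 1135 CPM in KO and at 257, 248 and 235 CPM in WT (1.52, SE 0.41, adjusted p = 0.268, edgeR). *Ctss*, cathepsin S, was at 285, 1281, 914 and 2613 CPM in KO and at 179, 200 and 322 CPM in WT (2.45, SE 0.71). KO 1 lay near WT for both genes. Summed over the list the levels were 7899, 21533, 17628 and 25358 CPM in KO and 8989, 8503 and 10621 CPM in WT, so KO 1 was below every WT library and the other KO libraries above. A large part of these sums was *Lyz2*, at 3277, 11031, 7929 and 10566 CPM in KO and 4062, 3555 and 5671 CPM in WT. The median was 0.70 without WT 3 and 0.79 without KO 4.

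Innate and Fc receptor genes, many of which macrophages express, had 19 of 20 members higher with a median of 0.66 (0.84 without WT 3, 0.52 without KO 4). At an unadjusted p under 0.05 were 7 higher, beside 7.02% of all genes. Genotypes did not overlap for 4 higher members (20%, beside 7.45% of all genes), and DESeq2 called 4 higher, beside 1.87%. *Tlr7*, a sensor of single-stranded RNA, was at 56.5, 97.3, 115 and 85.8 CPM in KO and at 45.1, 30.3 and 34.9 CPM in WT (1.27, SE 0.27). *Fcgr2b*, the inhibitory IgG receptor, was at 255, 394, 486 and 305 CPM in KO and at 173, 171 and 79.5 CPM in WT (1.35, SE 0.36). The levels summed over the list were 944, 1998, 1853 and 3890 CPM in KO and 960, 890 and 945 CPM in WT, so KO 1 lay inside the WT range and the other KO libraries above it. *Slamf7*, an immune cell receptor, was at 9.87, 9.95, 35.4 and 278 CPM in KO and at 1.54, 0.691 and 15.9 CPM in WT, which overlapped (3.76, SE 1.67). Its log2 fold change was 1.56 without KO 4 and 6.17 without WT 3. *Bin3*, a BAR domain adaptor, was at 31.4, 31, 32.3 and 34.1 CPM in KO and at 24.9, 23.6 and 23.4 CPM in WT (0.43, SE 0.12). The part of macrophage RNA in these differences, and in the lower levels of stromal genes, was not tested.

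**Figure D3:**
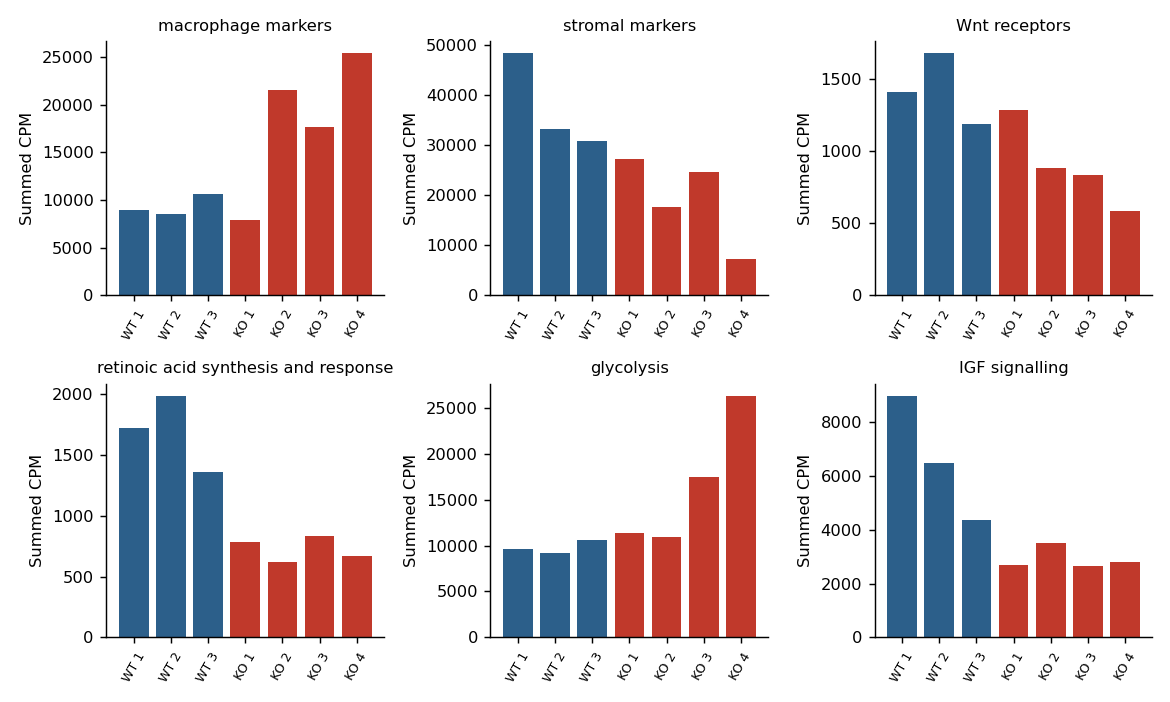
Levels summed over the members of 6 gene lists (CPM, vertical axis) in each library, WT in blue and KO in red. Sums weigh abundant members most, such as *Lyz2* among macrophage and *Cxcl12* among stromal markers. Macrophage markers were at 7899 CPM in KO 1 and at 17628 to 25358 CPM in the other KO libraries, and retinoic acid genes were at 621 to 832 CPM in the 4 KO and at 1356 to 1986 CPM in the 3 WT libraries.

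Glycolysis genes were higher for 18 of 20 members, with a median of 0.70, and 4 had an unadjusted p under 0.05. *Pkm*, pyruvate kinase, was at 2137, 2541, 3571 and 4498 CPM in KO and at 1338, 1542 and 1923 CPM in WT (0.99, SE 0.35). *Pgam1*, phosphoglycerate mutase, was at 257, 197, 280 and 377 CPM in KO and at 155, 167 and 174 CPM in WT (0.75, SE 0.24). KO 4 was the highest library in both, and the list's median was 0.43 without it and 0.73 without WT 3. In the 6 deep libraries the glycolysis median was 0.17, with 16 of 20 higher. The insulin-like growth factor list had a median of -0.32 over 14 members (0.03 without WT 1, -0.16 without KO 3, -0.62 without WT 3), but its summed level was 2652 to 3510 CPM in KO and 4372 to 8972 CPM in WT. *Igfbp4*, a binding protein that restrains these growth factors, averaged 808 CPM in KO and 3985 CPM in WT (-2.30) and was the most abundant member in WT. *Igf2r*, which clears IGF2, was higher at an unadjusted p under 0.05 (0.67, SE 0.23).

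The endothelial list did not move as 1 group. *Kdr* was higher and *Eng* lower as above, *Vwf*, von Willebrand factor, had 1.88 with an unadjusted p under 0.05, and *Pecam1*, which encodes the CD31 used for depletion, was at 6.75 CPM or less. The median over 8 tested members was 0.41, or 1.62 without WT 3 and 0.10 without WT 1. Genes within 5 Mb of *Slc6a6* on either side, a region largely inherited together with the allele, were counted too. Of 62 tested, 5 were higher and 5 lower at an unadjusted p under 0.05, with a median of 0.04 (-0.06 without WT 3, 0.22 without WT 1), shares near those of all genes. *Magi1*, a scaffold protein gene, was the lowest in p (-1.05, SE 0.18), followed by *Arhgap25* (1.27, SE 0.34).

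**Figure D4:**
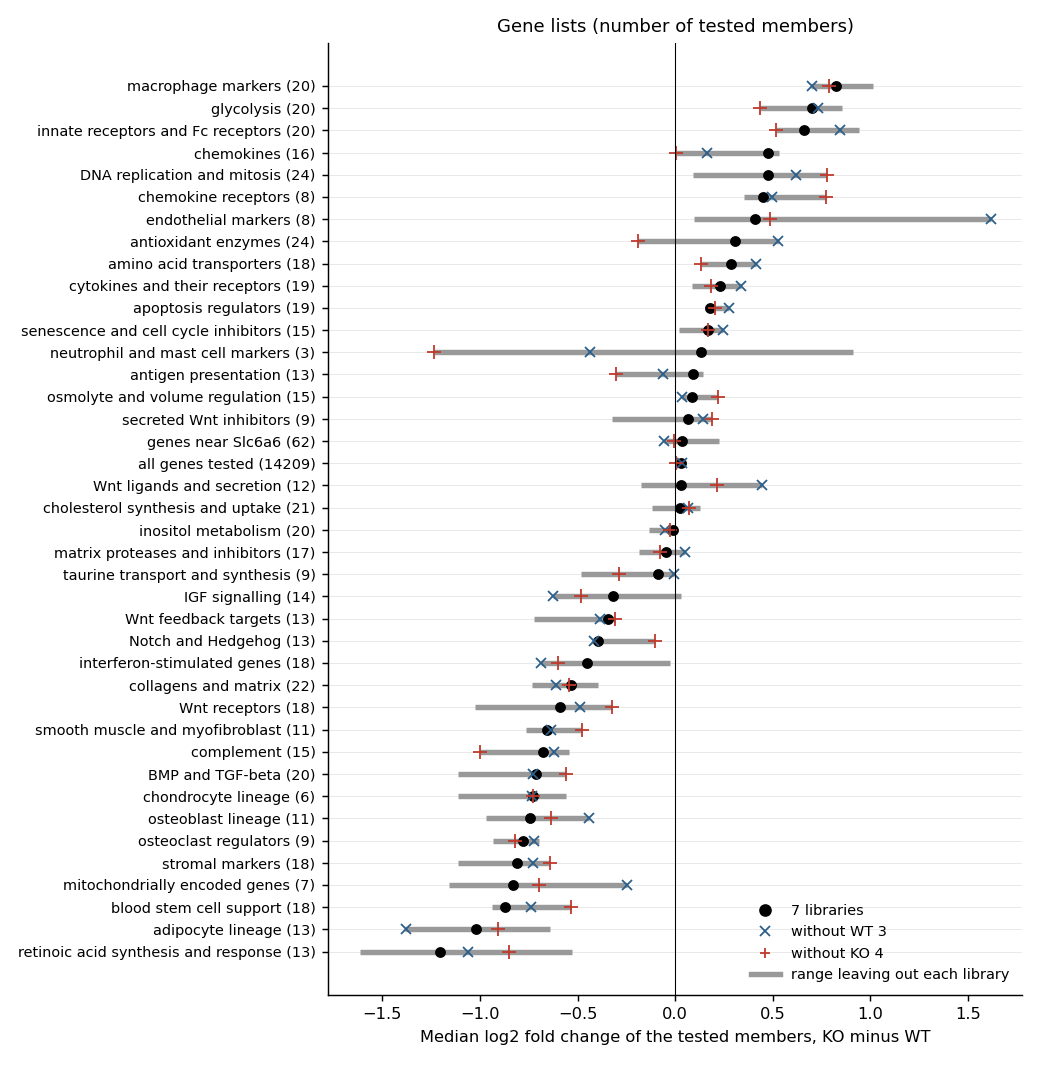
Median log2 fold change (KO minus WT, horizontal axis) over the tested members of each gene list, with the number of members in brackets. Black points are all 7 libraries, crosses leave out WT 3, plus signs leave out KO 4, and grey bars span the 7 fits that each leave out 1 library. The median over all 14209 genes was 0.03, macrophage markers lay at 0.82 and retinoic acid genes at -1.20.

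The deep libraries served as samples that had no part in picking the 20 named genes or the genes without overlap at low depth. The 2 that nearly matched a low-depth library were left out, which left 3 KO and 3 WT libraries. All 20 named genes had the same direction there, but edgeR called 0 of 17032 genes (smallest adjusted p 0.690), with 761 higher and 467 lower at an unadjusted p under 0.05 (7.21%). Of the 20 genes, 2 higher and 1 lower had an unadjusted p under 0.05. *Slco4a1* was at 14.5 to 68.4 CPM in the deep KO and at 0.399 to 2.26 CPM in the deep WT libraries (4.70, SE 0.87). *Fxyd2* was at 31.2 to 55.3 CPM in KO and at 0.205 to 2.78 CPM in WT (4.49, SE 0.93). Neither overlapped, and the same held for *AU022793*, *Cav2* and *Kdr*.

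None of the 10 lower genes was without overlap in the deep libraries. *Id4* was at 2.30 to 90.8 CPM in KO and at 39.5 to 355 CPM in WT (-2.06, SE 1.30). *Fzd4* was at 1.52 to 56.8 CPM in KO and at 18.1 to 112 CPM in WT (-1.12, SE 1.27). For both genes the deep libraries of the genotypes overlapped. Only *Adarb1* had an unadjusted p under 0.05 there (-1.99, SE 0.60).

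Over all genes whose genotypes did not overlap at low depth, 85.3% of those higher in KO were also higher in the 6 deep libraries, beside 46.2% of all genes tested, and 90.8% of those lower were lower, beside 53.8%. At an unadjusted p under 0.05 in the deep libraries were 16.8% of the higher and 8.65% of the lower, beside 4.92% and 2.57% of all genes. The macrophage median was 1.58 in the 6 deep libraries with 20 of 20 higher, the Wnt receptor median -0.29 with 15 of 18 lower and the retinoic acid median -0.36 with 9 of 13 lower. The stromal median there was -0.09, with 9 on each side. The lists were chosen with earlier results of these data known, so these list medians are not an independent check. The difference of the KO effect between low-depth and deep libraries was tested as an interaction over 15 libraries, which counts the 2 pairs of nearly matching libraries as separate samples. It called 0 of 18263 genes in edgeR (0%), with 295 at an unadjusted p under 0.05 (1.62%), and 3 in DESeq2, namely *Eif2s3y*, *Gm29650* and *Tfap2b*. Without the deep library of each such pair edgeR called 0 of 14994 genes, with 268 at an unadjusted p under 0.05 (1.79%). Each of the 3 DESeq2 calls was near 0 in all low-depth libraries but 1, and *Eif2s3y* is Y-linked and was present only in WT 3. *Eln*, elastin, was at 0.0715 to 0.707 CPM in KO and 0.742 to 10.9 CPM in WT at low depth (-3.81, SE 1.02, or -2.53 without WT 3), but had 2.34 (SE 1.69) in the 6 deep libraries. Its unadjusted interaction p in edgeR was 0.0096 over 15 libraries and 0.0143 without the nearly matching deep libraries, and that of *Socs6* was 0.0241 and 0.0199.

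**Figure D5:**
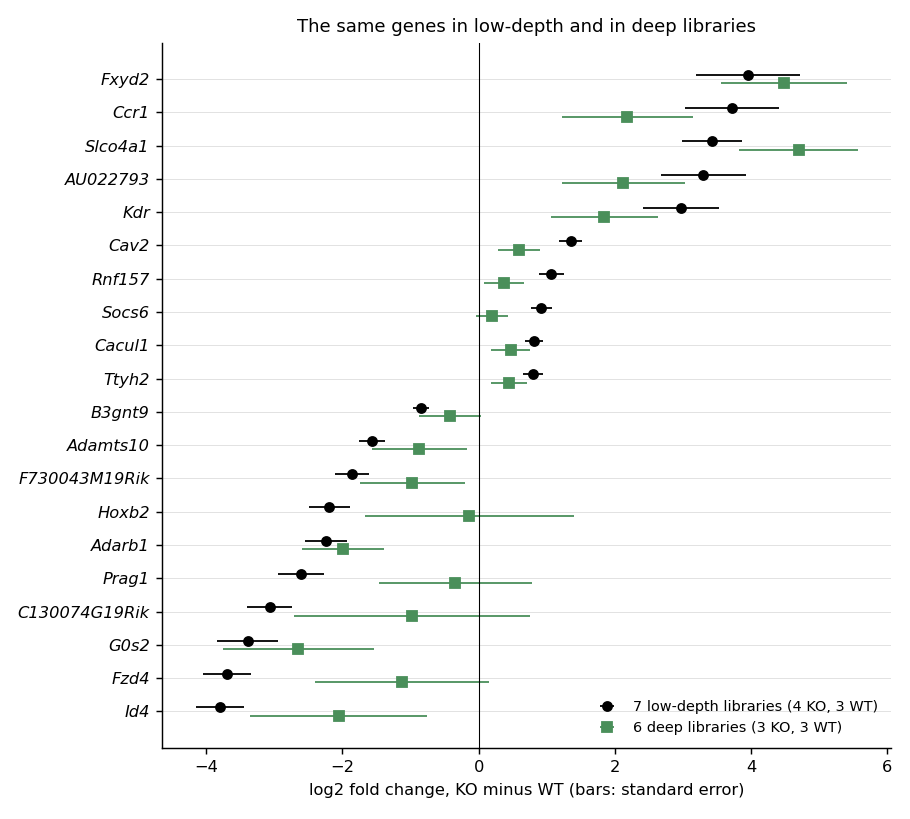
Log2 fold change (KO minus WT, horizontal axis) of the 20 named genes in the 7 low-depth libraries (black circles) and in 6 deep libraries (green squares), with bars of 1 standard error. All 20 lie on the same side of 0 in both, and the bars of the deep libraries are the longer, as for *Id4* with 1.30 against 0.35.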

How the data were processed

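RNA of 15 MSC cultures was made into full-length cDNA by oligo-dT priming and sequenced as paired reads of 150 nt. Per the labels and the study's methods, reads were trimmed with fastp 0.23.1, mapped with STAR 2.7.9a to GRCm39 with GENCODE M31 and counted per gene with featureCounts of Subread 2.0.1, set to reverse strand. The table deposited by the authors holds these raw counts, whole and not normalized, for 56832 genes, with 0 columns left unmapped.

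The 7 libraries chosen by their totals were fitted with edgeR 4.0.16 in R 4.3.3 (TMM scaling, filterByExpr, quasi-likelihood, Benjamini-Hochberg, threshold 0.05), where 14209 genes passed the filter. The study fitted DESeq2 with sex and condition, and here labelled sex is constant. DESeq2 1.42.0, limma 3.58.1 voom, upper-quartile scaling, other filters, all 15 libraries in 1 fit and leaving out each library were alternatives. CPM are TMM-scaled. Tested on simulated data, with 200 of 14209 genes changed 4-fold in this design, edgeR recovered 56.5%, voom 59% and DESeq2 84%, with 7, 8 and 56 unchanged genes called. Counts have no molecular identifiers, so precision by depth covers counting error only, and the totals of 12761107 to 20781070 put 1 CPM at 13.0 to 21.3 counts in a library.

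Members and gene lists were chosen with earlier results of these data known. Named genes are *Slc6a6*, 6 genes the study names, the 10 higher and 10 lower genes with the smallest p, an average of 5 CPM or more and genotypes apart, and the 2 smallest p of each list. Positions come from GENCODE M39, a later annotation of GRCm39, matched by symbol for 97% of tested genes.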

Additional observations from a re-analysis of the deposited data

Results flagged for a closer look

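In groups of 4 libraries, 98 genes were examined for a KO library far from the other 3, by its gap to the nearest as a share of the group's range, against Dixon's 95% limit for 4 values. That limit alone would mark 4.9 of 98 genes, and 4 were marked. Most of these genes were picked for a small p, so 4.9 is not the number due to chance in this set. *Slamf7* was at 278 CPM in KO 4 with the next library at 35.4 CPM (share 0.905). *S100a8*, a neutrophil protein gene, was at 52.0 CPM in KO 4 with the others at 0.104 to 1.41 CPM (share 0.975). *Fmo1* was at 11.1 CPM in KO 1 with the others at 0.327 to 1.21 CPM (share 0.917). *mt-Nd6* was at 23.5 CPM in KO 1 with the others at 7.02 to 8.65 CPM (share 0.901).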

How the results depend on the processing

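edgeR called 0 genes in each direction with upper-quartile scaling, with all 15 libraries in 1 fit and without any of the 7 libraries in turn, and voom called 0. Without a filter on low counts 1 higher and 6 lower were called (*Slco4a1*, and *Id4*, *Fzd4*, *C130074G19Rik*, *Hsd11b1*, *G0s2* and *Prag1*), with at least 10 counts in every library 3 lower (*Id4*, *Fzd4* and *Hsd11b1*), and with DESeq2 266 higher and 354 lower. Counts at an unadjusted p under 0.05 ranged from 456 to 1476 higher and from 650 to 1325 lower when 1 library was left out. Upper-quartile scaling gave 783 higher and 1183 lower. The interaction called 3 genes in DESeq2 and 0 in edgeR under each alternative, those without 1 library (0 to 0) included. Of the alternative values of named genes 1393 kept direction and side of the threshold, 64 passed it and 3 changed sign, all of *S100a8* (2.38). It was 6.0 without WT 3, -0.63 with the replicate block on replicates 1 to 3, a setting chosen after seeing the data, and -1.76 without KO 4. The fit of replicates 1 to 3 without the block is the same fit as that without KO 4. These counts, the 3 sign changes and those of list medians hold it under both names. Of the list medians 540 stayed within the spread and 45 moved. The cause was not tested.

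WT and KO libraries share the numbers 1 to 3 in their labels. Same-numbered libraries deviated together with correlations of 0.323, 0.106 and -0.018, and not every library correlated best with its own number, so the numbers were not taken as a pairing. With the replicate block on those 6 libraries edgeR called 0 and 0 genes, with 831 higher and 1239 lower at an unadjusted p under 0.05, beside 879 and 1088 without the block. The block lowered edgeR's coefficient of variation between libraries from 0.353 to 0.306. *Kitl* had a log2 fold change of -1.56 with the block and -1.40 without it. *Kitl* and *Cxcl12* fell from number 1 to 3 in both genotypes and were lower in KO at each number. Their overlap between genotypes would therefore weigh less if the numbers were a pairing, which these correlations cannot decide. Depth limits the rarer genes most: *Plin1* and *Eln* rest on as few as 4 counts and 1 count in a KO library.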

Other observations

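Several lists outside the comparison above held values of their own, all chosen as lists and described by counts. All 7 tested genes encoded by mitochondrial DNA had a negative log2 fold change, with a median of -0.83, but of -0.25 without WT 3, whose summed level of 29750 CPM compared with 13638 and 9141 CPM in the other WT and 9564 to 14461 CPM in the KO libraries. *mt-Cytb*, a subunit of respiratory complex III, was at 2215, 1875, 1313 and 516 CPM in KO and at 2290, 1868 and 5872 CPM in WT. Its log2 fold change was -1.18 (SE 0.59), or -0.50 without WT 3. Of 18 interferon-stimulated genes 13 were lower (median -0.45, or -0.03 without WT 2 and -0.69 without WT 3), among them *Oasl2* (-1.19), and 4 had an unadjusted p under 0.05.

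Of 24 genes of DNA replication and mitosis 22 were higher (median 0.47, or 0.09 without KO 3 and 0.78 without KO 4), and 1, the sliding clamp gene *Pcna*, had an unadjusted p under 0.05, at 64.3, 68.0, 93.4 and 93.7 CPM in KO and 54.0, 48.1 and 50.2 CPM in WT. *Pcna* also had 0.73 (SE 0.20) in the 6 deep libraries, where 24 of 24 members were higher. Of 19 apoptosis regulators 13 were higher (median 0.18, or 0.28 without WT 3), 4 of them at an unadjusted p under 0.05, including *Bcl2l1*, which protects cells (0.67), and *Bik* and *Apaf1*, which promote death (1.90 and 0.48). Among amino acid transporters *Slc7a1*, a carrier of arginine and lysine, was at 81.4, 56.5, 140 and 117 CPM in KO and at 33.0, 48.4 and 41.3 CPM in WT (1.27, SE 0.33), and *Slc1a5*, a glutamine carrier, had -1.37 (SE 0.46).

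Among complement genes *C1qb* and *C3ar1*, which macrophages express, had 0.76 and 1.51, while *C1s1*, which stromal cells express, had -1.41, all 3 with an unadjusted p under 0.05.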
